A study of Homo sapiens with 21 samples.

Results

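The genes described here are 36 human factors that form the end of a messenger RNA and carry the finished message out of the nucleus. They were chosen by name, and all 36 were found among the 60668 gene identifiers that each count table lists. All 36 also passed the filter on low counts in both tables, with at least 2468 counts for any member in any library. The libraries were RNA-seq libraries of HCC1806, an established human triple-negative breast cancer cell line grown as a monolayer to near confluence in DMEM with fetal bovine serum. There were 21 of them in 7 groups of 3. The first table held a control (3XCTL), a line labelled as overexpressing the 3 splicing factors SRSF2, SRSF3 and SRSF7 together (3xSR) and a line labelled as overexpressing MYC (MYC-OE). The second table held a single plasmid control (1xCtrl) and lines labelled as overexpressing 1 factor each (SRSF2 OE, SRSF3 OE and SRSF7 OE). The labels name no vector, promoter or clone, and MYC-OE was compared with 3XCTL, which may not carry the same vectors. Nothing in the labels says that replicates came from separate cultures, so the p-values measure only the spread between these libraries, which may be technical.

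A pre-mRNA is cut downstream of its polyadenylation signal by a large complex and then receives its poly(A) tail. CPSF reads the signal and holds the nuclease, CSTF binds downstream GU-rich sequence, CFIm binds UGUA elements and steers the choice among alternative sites, and CFIIm joins cleavage to transcription termination. Poly(A) polymerase adds the tail, which poly(A) binding proteins coat. The TREX complex (THO, an RNA helicase and adaptors such as ALYREF) loads the export receptor NXF1 with its partner NXT1 onto the message. SRSF3 and SRSF7 are themselves known as adaptors for NXF1, and both are known to bind near alternative polyadenylation sites.

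Library totals ran from 143269192 to 303323552 counts, so counting error was small beside the spread between libraries. Levels are given as CPM, counts scaled to library size with TMM factors within each table, and a level in one table was not tested against a level in the other. A gene was called when its Benjamini-Hochberg adjusted p from edgeR's quasi-likelihood test, adjusted over all genes tested, was under 0.05, and all tests were two-sided. As a check of the labels, SRSF3 rose in 3xSR (log2 fold change 0.31) and in SRSF3 OE (0.49), and SRSF7 rose in 3xSR (0.44) and in SRSF7 OE (0.26). SRSF2 was not raised where the labels name it. It stood at 386 ± 12 CPM (SD, n = 3) in the libraries labelled 3xSR against 403 ± 18.3 (SD, n = 3) in 3XCTL, and at 398 ± 19.6 (SD, n = 3) in those labelled SRSF2 OE against 444 ± 31.5 (SD, n = 3) in 1xCtrl. MYC was higher in MYC-OE (log2 fold change 0.90), and also in the libraries labelled 3xSR (0.75). Of these 4 genes (SRSF2, SRSF3, SRSF7 and MYC), 2 were called higher in SRSF2 OE and 2 in SRSF3 OE. In SRSF7 OE 2 were higher and 1 lower, in MYC-OE 1 was higher and 1 lower, and in 3xSR 3 were higher. Genes other than the one a label names were thus called in each single line. The basal markers KRT5 (1600 to 2651 CPM), EGFR and TP63 were present in all libraries, ESR1 stayed at or under 11.5 CPM, PGR was at 0 in 12 libraries, and the leukocyte gene CD3E was at 0 in 18 of 21.

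In each table, replicate 2 of the control leaned on GC content the other way from its fellow controls. Genes above the 80th percentile of transcript GC content stood 0.60 on the log2 scale above those under the 20th percentile in 1xCtrl replicate 2, after centring on the table, against -0.20 and -0.38 in the other two 1xCtrl libraries. In 3XCTL replicate 2 the same contrast was -0.29, against 0.24 and 0.24. The members followed it. Of the 7 members whose longest transcript exceeded 55% GC, 6 were higher in 1xCtrl replicate 2 than in both of its fellow controls, and 6 were lower in 3XCTL replicate 2. CPSF1 was the extreme, at 130, 270 and 99.2 CPM in 1xCtrl replicates 1, 2 and 3. Counts of members and of related genes against a control are therefore given with and without these libraries, and the part of GC content in them was not tested beyond that and a fit with each library's GC trend removed. The overexpressing lines leaned too. The contrast was -0.36, -0.15 and -0.26 in 3xSR, 0.15, 0.15 and 0.29 in MYC-OE, and -0.31, -0.15 and -0.14 in SRSF3 OE. It was 0.089, 0.021 and 0.11 in SRSF2 OE, and 0.19, -0.082 and 0.27 in SRSF7 OE. Without 3XCTL replicate 2, the controls left (0.24 and 0.24) all lay above the 3xSR libraries, so leaving out a library does not remove GC differences between groups.

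**Figure D1:**
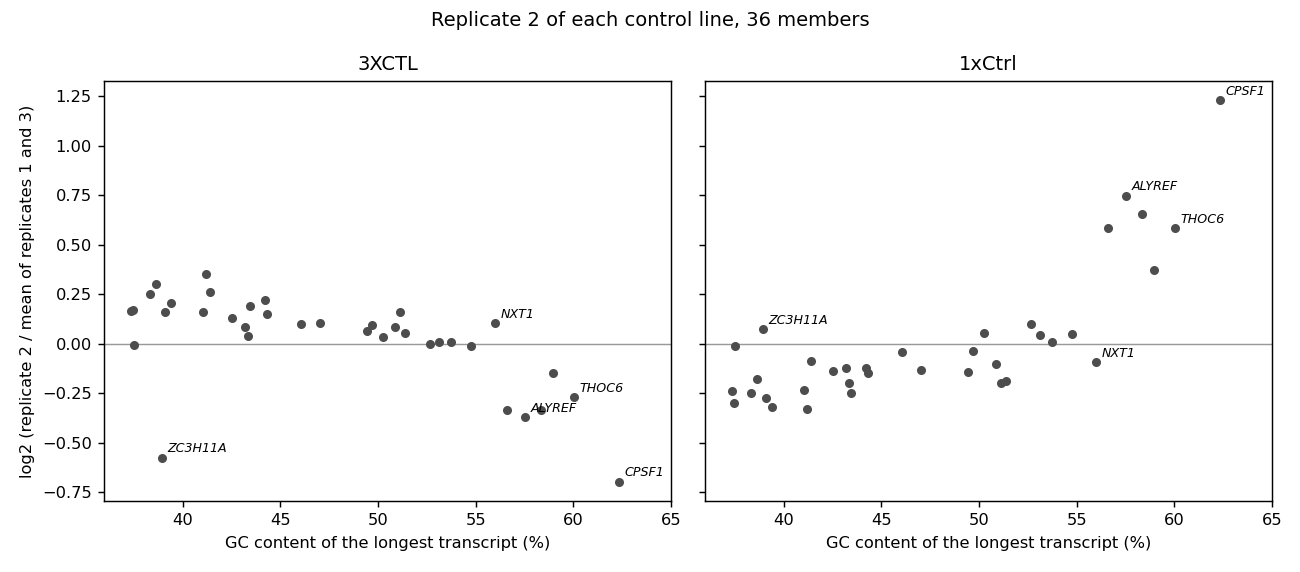
Each point is 1 of the 36 members: the x axis is the GC content of its longest transcript in percent, and the y axis is the log2 ratio of replicate 2 of a control to the mean of replicates 1 and 3, for 3XCTL (left) and 1xCtrl (right). Members over 55% GC lie mostly below 0 in 3XCTL and mostly above 0 in 1xCtrl, with CPSF1 at the far end of both.

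Promoter sequence was at hand for 32 of the 36 members in RefSeq (GRCh38.p14). Those of 3 are printed because their genes carry the contrasts below: THOC3, higher in 4 of the 5 lines; NXT1, higher in all 3 single lines and not in 3xSR; and DDX39A, lower in 3xSR and MYC-OE. Each run ends at or before the start annotated in RefSeq and is written 5′ to 3′ on the gene's strand. Matches to CCGGAAG (the core bound by ETS factors) and to CCAAT, on either strand, are in capitals. Gene spans given below are from GENCODE, and its THOC3 span starts further upstream. The THOC3 run therefore lies inside that span, not before it.
THOC3, chr5:175968316-175968565, minus strand: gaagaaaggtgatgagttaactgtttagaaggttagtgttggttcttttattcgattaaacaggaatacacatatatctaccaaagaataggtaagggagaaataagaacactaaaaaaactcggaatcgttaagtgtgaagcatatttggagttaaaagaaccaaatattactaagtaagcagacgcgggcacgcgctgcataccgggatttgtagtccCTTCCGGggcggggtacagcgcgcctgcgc
NXT1, chr20:23350541-23350735, plus strand: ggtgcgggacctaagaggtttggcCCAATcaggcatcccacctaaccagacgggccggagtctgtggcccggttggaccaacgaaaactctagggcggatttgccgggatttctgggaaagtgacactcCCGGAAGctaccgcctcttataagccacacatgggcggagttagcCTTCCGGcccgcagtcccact
DDX39A, chr19:14419384-14419633, minus strand: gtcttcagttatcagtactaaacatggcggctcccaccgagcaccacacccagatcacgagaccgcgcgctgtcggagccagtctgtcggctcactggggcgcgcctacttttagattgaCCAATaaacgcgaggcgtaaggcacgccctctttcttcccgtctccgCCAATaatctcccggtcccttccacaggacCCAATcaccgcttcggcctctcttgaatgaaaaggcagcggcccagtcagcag
None of the 3 holds CACGTG, the E-box letters that MYC is known to bind. Over the 250 bases before the start, 2 of 32 members (6.25%) held CACGTG, beside 6.49% of all 27305 promoters in the table. CCGGAAG was in 11 of 32 (34.4%, beside 8.82% of all promoters), CCAAT in 13 (40.6%, beside 33.0%), GGGCGG, the GC box, in 22 (68.8%, beside 42.3%), and TATAAA in 3 (9.38%, beside 11.1%). GGGCGG and CCGGAAG matches may overlap, and a match is a description of the letters only.

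Per kilobase of exon, PABPC1 was the most abundant member, with a mean of 245 CPM per kb over all libraries, followed by DDX39B (110), PABPN1 (48.6), PABPC4 (34.9) and DDX39A (31.4). The lowest was PAPOLG, another nuclear poly(A) polymerase, at 2.98. CSTF1, WDR33 and THOC5 were also near the foot of the order, at 7.91, 7.39 and 5.40 CPM per kb. Most members held steady between replicates. The coefficient of variation within a group was over 20% in at least 1 group for CPSF1, ALYREF, DDX39A, SYMPK, THOC6, ZC3H11A and SARNP, the first 5 of which exceed 55% GC.

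The changes were small and differed between lines. The largest log2 fold change of any called member against a control was 0.59, for ALYREF in SRSF3 OE. In SRSF3 OE 14 of the 36 members were higher than in 1xCtrl (38.9%, beside 15% of the 24362 genes tested, of which 29.2% were called in either direction) and the other 22 were not called. SRSF2 OE had 12 members higher (33.3%, beside 11.6% of all genes) and 24 not called. SRSF7 OE differed from both, with 4 higher and 4 lower (11.1% each, beside 9.03% and 8.26%). In 3xSR 5 were higher and 4 lower (13.9% and 11.1%, beside 15.3% and 13.7%, together 29%, of 23160 genes), and in MYC-OE 4 were higher and 5 lower (11.1% and 13.9%, beside 18% and 17.3%, together 35.3%). In SRSF7 OE, 3xSR and MYC-OE the shares of members thus lay near or under those of all genes. The median log2 fold change of the members was 0.15 in SRSF2 OE and 0.15 in SRSF3 OE, where that of all genes was -0.011 and -0.025. It was 0.043 in SRSF7 OE, 0.051 in 3xSR and -0.0073 in MYC-OE. Counted by libraries alone, the groups did not overlap in 22 members in SRSF3 OE (beside 39.8% of all genes), 16 in SRSF2 OE (35.9%), 15 in SRSF7 OE (32.6%), 15 in 3xSR (40.2%) and 14 in MYC-OE (48.3%). In bulk RNA, fewer cells of a kind and less RNA per cell cannot be told apart.

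**Figure D2:**
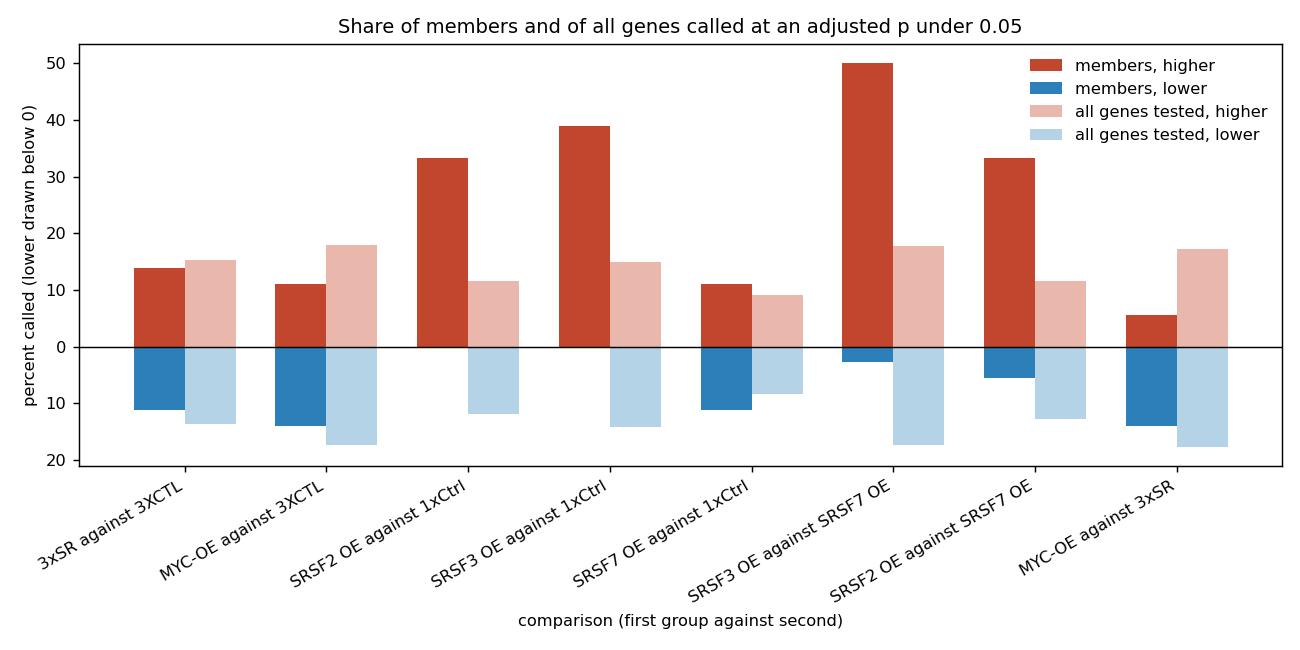
The y axis is the percent of genes called higher (drawn above 0) and lower (drawn below 0) at an adjusted p under 0.05, for the 36 members (dark) and for all genes tested (pale), in 8 comparisons along the x axis. The members stand furthest above all genes on the higher side in SRSF2 OE (33.3%), SRSF3 OE (38.9%), SRSF3 OE against SRSF7 OE (50%) and SRSF2 OE against SRSF7 OE (33.3%).

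No member was called lower in SRSF2 OE or SRSF3 OE by edgeR, and none by DESeq2 or limma-voom. At an unadjusted p under 0.05, edgeR had 1 member lower and 18 higher in SRSF2 OE, and 0 lower and 18 higher in SRSF3 OE. The one-sided pattern depended on the scaling: with total counts alone, which puts the median of all genes in SRSF3 OE at -0.14, 7 members were higher and 2 lower there (beside 9.42% and 20% of all genes), and 8 higher and 2 lower in SRSF2 OE (beside 9.2% and 15.8%). Without 1xCtrl replicate 2, 15 were higher in SRSF3 OE (beside 16.3% of all genes), and 16 were higher and 3 lower in SRSF2 OE (beside 14.5% and 15.6% of all genes). SRSF7 OE then had 8 higher and 8 lower (beside 16.4% and 12.8%). Without 3XCTL replicate 2, 13 members were higher and 7 lower in 3xSR (beside 19.4% and 19.1% of all genes), and 9 higher and 6 lower in MYC-OE (beside 19.4% and 18.2%). The 3 single lines share the control 1xCtrl, and 3xSR and MYC-OE share 3XCTL.

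**Figure D3:**
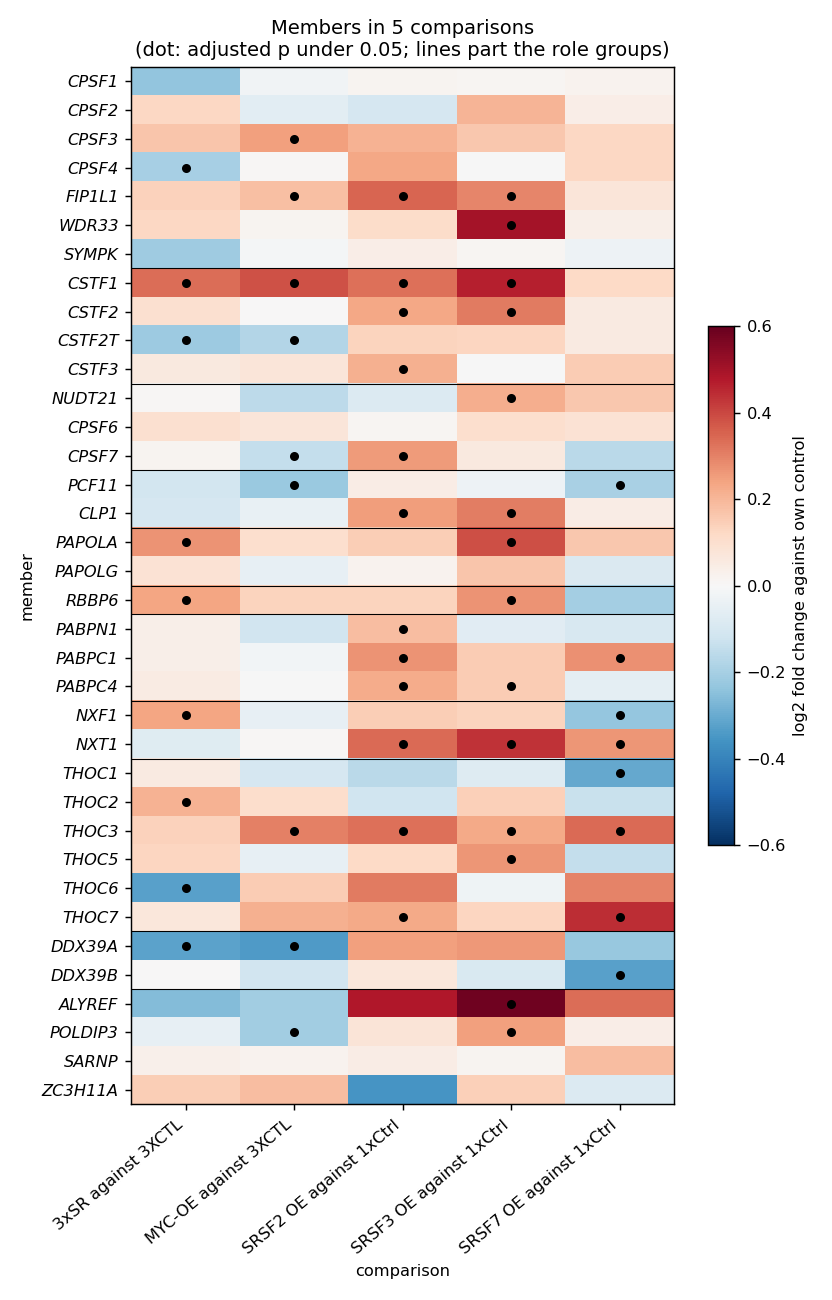
Rows are the 36 members in role groups parted by lines, columns are the 5 lines against their own control, colour is the log2 fold change, and a dot marks an adjusted p under 0.05. The SRSF2 OE and SRSF3 OE columns carry dots on red cells, while 3xSR, MYC-OE and SRSF7 OE carry dots on red and on blue cells.

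CPSF recognises the AAUAAA signal through WDR33 and CPSF4, cuts with CPSF3, and brings in poly(A) polymerase through FIP1L1, on the scaffolds CPSF1 and SYMPK. Of its 7 members, 2 were higher in SRSF3 OE, 2 in MYC-OE, 1 in SRSF2 OE, and 1 was lower in 3xSR. WDR33 (ENSG00000136709.12, chr2:127701022-127811187, minus strand) stood at 92.2, 95.7 and 92.0 CPM in 1xCtrl, 98.8, 103 and 100 in SRSF2 OE, 135, 131 and 129 in SRSF3 OE, and 96.3, 96.1 and 94.1 in SRSF7 OE. All 3 SRSF3 OE libraries thus lay above the other 9 libraries of the table. The log2 fold change was 0.50 ± 0.0485 (SE) in SRSF3 OE, with an edgeR adjusted p of 9.34e-06. In the first table its levels were 107, 109 and 106 CPM in 3XCTL, 117, 119 and 115 in 3xSR and 108, 109 and 110 in MYC-OE, and neither line passed the test.

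FIP1L1 (ENSG00000145216.16, chr4:53377643-53460861, plus strand) stood at 46.9, 44.8 and 52.4 CPM in 1xCtrl, 61.1, 63.9 and 58.6 in SRSF2 OE, 61.3, 57.0 and 58.5 in SRSF3 OE and 48.3, 51.4 and 51.8 in SRSF7 OE. The SRSF2 OE and SRSF3 OE libraries all lay above the controls, and those of SRSF7 OE overlapped them. Its log2 fold change was 0.35 ± 0.0672 (SE, adjusted p = 0.00228, edgeR) in SRSF2 OE and 0.30 ± 0.0671 (SE, adjusted p = 0.00481, edgeR) in SRSF3 OE. FIP1L1 was also higher in MYC-OE, at 54.6, 52.8 and 54.0 CPM against 47.5, 50.8 and 44.2 in 3XCTL, with 53.6, 50.3 and 52.8 in 3xSR. That log2 fold change of 0.18 (adjusted p = 0.0285, edgeR) stayed between 0.13 and 0.23 in the alternative fits, but it was no longer called without any 1 of the 3 MYC-OE libraries (adjusted p from 0.059 to 0.0962), without 3XCTL replicate 3 (0.0862) or with total counts alone (0.0547).

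CPSF3, the nuclease, was higher in MYC-OE (log2 fold change 0.25), and CPSF4, a zinc finger subunit, was lower in 3xSR (-0.20). The CPSF3 call was lost in 3 of 17 alternative fits, each leaving out 1 library. CPSF4 has over 55% GC, and with the GC trend removed its value was -0.012 (adjusted p = 0.876, edgeR). Its call was lost in 6 of 17 alternative fits, 4 of them leaving out 1 library (3XCTL replicate 1 or 3, or 3xSR replicate 1 or 3). CPSF1, CPSF2 and SYMPK were called in none of the 5 lines, with log2 fold changes from -0.24 to 0.20. For CPSF1 the standard errors were wide, at 0.32 in the single lines, with 1xCtrl replicate 2 in the fit.

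CSTF consists of CSTF1, the RNA-binding CSTF2 or its paralog CSTF2T, and the scaffold CSTF3. Of these 4, 3 were higher in SRSF2 OE and 2 in SRSF3 OE. CSTF1 (ENSG00000101138.12, chr20:56392371-56406369, plus strand) was the member raised in most lines together with THOC3. Its levels were 31.0, 32.8 and 30.9 CPM in 3XCTL, 41.2, 39.0 and 39.3 in 3xSR and 42.4, 41.2 and 39.8 in MYC-OE. In the second table they were 33.0, 30.6 and 33.7 in 1xCtrl, 41.6, 39.9 and 40.9 in SRSF2 OE, 47.1, 43.4 and 43.8 in SRSF3 OE, and 35.1, 37.1 and 33.6 in SRSF7 OE. Every library of 3xSR, MYC-OE, SRSF2 OE and SRSF3 OE lay above all of its controls, while SRSF7 OE replicate 3 lay just under 1xCtrl replicate 3. The log2 fold changes were 0.34 ± 0.0515 (SE) in 3xSR, 0.38 ± 0.0514 in MYC-OE, 0.33 ± 0.0619 in SRSF2 OE and 0.46 ± 0.0619 in SRSF3 OE, with edgeR adjusted p-values of 0.000465, 0.000122, 0.00195 and 0.000112. In SRSF7 OE it was 0.12 ± 0.0618 (SE, adjusted p = 0.212, edgeR), and the SRSF3 OE libraries were higher than those of SRSF7 OE by 0.34 (adjusted p = 0.00075, edgeR).

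The CSTF2 paralogs were called in different lines, and no test compared them with each other. CSTF2, on the X chromosome, was higher in SRSF2 OE (log2 fold change 0.23) and SRSF3 OE (0.31), and its mean was 28.8 CPM in the control and 35.8 CPM with SRSF3 overexpressed. The SRSF2 OE call of CSTF2 was lost in 8 of 17 alternative fits. CSTF2T, an intronless copy, had values of 0.13 and 0.13 in those 2 lines, not called. It was lower in 3xSR (-0.22, adjusted p = 0.02, edgeR, lost in 3 of 17 alternative fits) and MYC-OE (-0.17, adjusted p = 0.0465, edgeR, lost in 10 of 17 alternative fits). In the joint fit its 3xSR effect was lower than each single-factor effect, by 0.34, 0.34 and 0.27. CSTF3 was higher in SRSF2 OE alone among the 5 calls (0.21, adjusted p = 0.0469, edgeR), a call lost in 10 of 17 alternative fits, 5 of the 6 that leave out 1 library among them. The SRSF2 OE libraries were also higher than those of SRSF3 OE, by 0.22.

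CFIm pairs NUDT21, which binds UGUA, with CPSF6 or CPSF7. CPSF7 (ENSG00000149532.15, chr11:61402641-61430031, minus strand) was called in opposite directions, higher in SRSF2 OE and lower in MYC-OE. It stood at 152, 134 and 155 CPM in 1xCtrl, 170, 180 and 177 in SRSF2 OE, 150, 158 and 151 in SRSF3 OE and 132, 137 and 126 in SRSF7 OE. Levels in the first table were 151, 156 and 150 in 3XCTL, 150, 153 and 160 in 3xSR and 139, 135 and 140 in MYC-OE. All SRSF2 OE libraries lay above, and all MYC-OE libraries below, their controls. Its log2 fold change was 0.26 ± 0.062 (SE, adjusted p = 0.00888, edgeR) in SRSF2 OE and -0.14 ± 0.0463 (SE, adjusted p = 0.0319, edgeR) in MYC-OE. The MYC-OE call was lost in 6 alternative fits, among them those without any 1 of the MYC-OE libraries (adjusted p from 0.0616 to 0.124). SRSF2 OE exceeded SRSF3 OE by 0.20 and SRSF7 OE by 0.42 (adjusted p = 0.000385, edgeR). NUDT21 was higher in SRSF3 OE (0.22, a call lost in 10 of 17 alternative fits), where it also exceeded SRSF2 OE by 0.30. CPSF6 was called in no line, with log2 fold changes between 0.011 and 0.10.

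CFIIm holds PCF11, which binds the RNA polymerase II tail and is needed for termination, and the kinase CLP1. PCF11 (ENSG00000165494.11, chr11:83156988-83187451, plus strand) was lower in MYC-OE and SRSF7 OE. Its levels were 144, 161 and 150 CPM in 3XCTL, 139, 143 and 140 in 3xSR and 129, 130 and 131 in MYC-OE. Levels in the second table were 166, 153 and 171 in 1xCtrl, 160, 174 and 172 in SRSF2 OE, 156, 165 and 158 in SRSF3 OE and 143, 144 and 141 in SRSF7 OE. The MYC-OE and SRSF7 OE libraries all lay below their controls, as did those of 3xSR, which did not pass the test (adjusted p = 0.126, edgeR). The log2 fold change was -0.22 ± 0.0498 (SE, adjusted p = 0.0043, edgeR) in MYC-OE and -0.19 ± 0.0573 (SE, adjusted p = 0.034, edgeR) in SRSF7 OE. The SRSF7 OE call was lost when only 1xCtrl and SRSF7 OE were fitted (0.09) and with the replicate block (0.0671). CLP1 was higher in SRSF2 OE (0.25) and SRSF3 OE (0.31), and its 3xSR effect was lower than theirs by 0.34 and 0.40 in the joint fit. The SRSF2 OE call of CLP1 was lost in 2 of 17 alternative fits.

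PAPOLA, the main nuclear poly(A) polymerase (ENSG00000090060.18, chr14:96501433-96567111, plus strand), was higher in 3xSR and SRSF3 OE. It stood at 163, 183 and 155 CPM in 3XCTL, 213, 193 and 198 in 3xSR and 181, 183 and 172 in MYC-OE. Levels in the second table were 176, 144 and 183 in 1xCtrl, 195, 181 and 182 in SRSF2 OE, 232, 211 and 214 in SRSF3 OE and 182, 198 and 182 in SRSF7 OE. The 3xSR and SRSF3 OE libraries lay above their controls, and the other lines overlapped them. It rose by a log2 fold change of 0.27 ± 0.0658 (SE, adjusted p = 0.00885, edgeR) in 3xSR and 0.39 ± 0.083 (SE, adjusted p = 0.0034, edgeR) in SRSF3 OE. PAPOLA has a GC content of 39.4%, and with the GC trend removed the values were 0.12 (adjusted p = 0.02, edgeR) and 0.26. RBBP6, a ubiquitin ligase that activates cleavage, was higher in the same lines (0.24 and 0.27) and was not called in SRSF7 OE (-0.20). The RBBP6 call was lost in 3 of 17 alternative fits in 3xSR, each leaving out 1 library, and in 5 in SRSF3 OE. SRSF3 OE exceeded SRSF7 OE in RBBP6 by 0.47 (adjusted p = 0.000146, edgeR). PAPOLG was called in none of the 5 lines (-0.084 to 0.17).

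The poly(A) binding proteins moved most in SRSF2 OE, where all 3 were higher. PABPN1, the nuclear protein that sets tail length, rose by a log2 fold change of 0.18 there, and PABPC1 and PABPC4, its cytoplasmic counterparts, by 0.27 and 0.22. PABPC1 was also higher in SRSF7 OE (0.27), and PABPC4 in SRSF3 OE (0.15, adjusted p = 0.0341, edgeR). The PABPC4 call in SRSF3 OE was lost in 12 of 17 alternative fits, including all 6 that leave out 1 library, with values down to 0.044. That of PABPN1 in SRSF2 OE was lost in 8, and that of PABPC1 in SRSF7 OE in 2. PABPC1 ranged from 955 to 1324 CPM over the 21 libraries, PABPN1 from 171 to 221 and PABPC4 from 210 to 265. None of the 3 was called in 3xSR or MYC-OE, where the log2 fold changes lay between -0.12 and 0.049.

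The export receptor is the pair NXF1 and NXT1, and the pair did not move as a unit. NXF1 (ENSG00000162231.14, chr11:62792123-62806302, minus strand) stood at 103, 103 and 102 CPM in 3XCTL, 115, 127 and 123 in 3xSR and 97.3, 97.8 and 103 in MYC-OE. In the second table its levels were 124, 124 and 122 in 1xCtrl, 131, 141 and 136 in SRSF2 OE, 124, 143 and 137 in SRSF3 OE and 107, 105 and 102 in SRSF7 OE. The 3xSR libraries lay above and the SRSF7 OE libraries below their controls. The log2 fold change was 0.24 ± 0.0503 (SE, adjusted p = 0.0038, edgeR) in 3xSR and -0.23 ± 0.0603 (SE, adjusted p = 0.0182, edgeR) in SRSF7 OE. The difference between these effects, tested in the joint fit over 21 libraries, was 0.48 ± 0.0716 (SE, adjusted p = 6.32e-05, edgeR). Within the second table, SRSF7 OE was lower than SRSF3 OE by 0.36 and than SRSF2 OE by 0.38.

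NXT1 (ENSG00000132661.4, chr20:23350736-23354777, plus strand) stood at 24.9, 23.8 and 25.8 CPM in 1xCtrl, 31.4, 31.2 and 31.7 in SRSF2 OE, 34.1, 31.7 and 34.9 in SRSF3 OE and 28.3, 31.5 and 29.5 in SRSF7 OE. All 9 libraries of the single lines lay above all 3 controls. The log2 fold changes were 0.34 ± 0.0629, 0.44 ± 0.063 and 0.26 ± 0.0629 (SE), with edgeR adjusted p-values of 0.0018, 0.000203 and 0.0123. In the first table NXT1 was at 32.4, 35.4 and 33.5 CPM in 3XCTL, 31.3, 31.9 and 32.9 in 3xSR and 33.9, 33.6 and 34.2 in MYC-OE, and neither line was called (log2 fold changes of -0.075 and 0.0054). The 3xSR effect was lower than the SRSF2 OE, SRSF3 OE and SRSF7 OE effects by 0.41, 0.50 and 0.33, with edgeR adjusted p-values of 0.000435, 9.1e-05 and 0.00231. The level in 3XCTL lay above that in 1xCtrl, but the tables were normalized separately and the controls were not tested against each other. The SRSF7 OE call was lost with the GC trend removed (adjusted p = 0.0643, edgeR) and when only 1xCtrl and SRSF7 OE were fitted (0.0635).

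**Figure D4:**
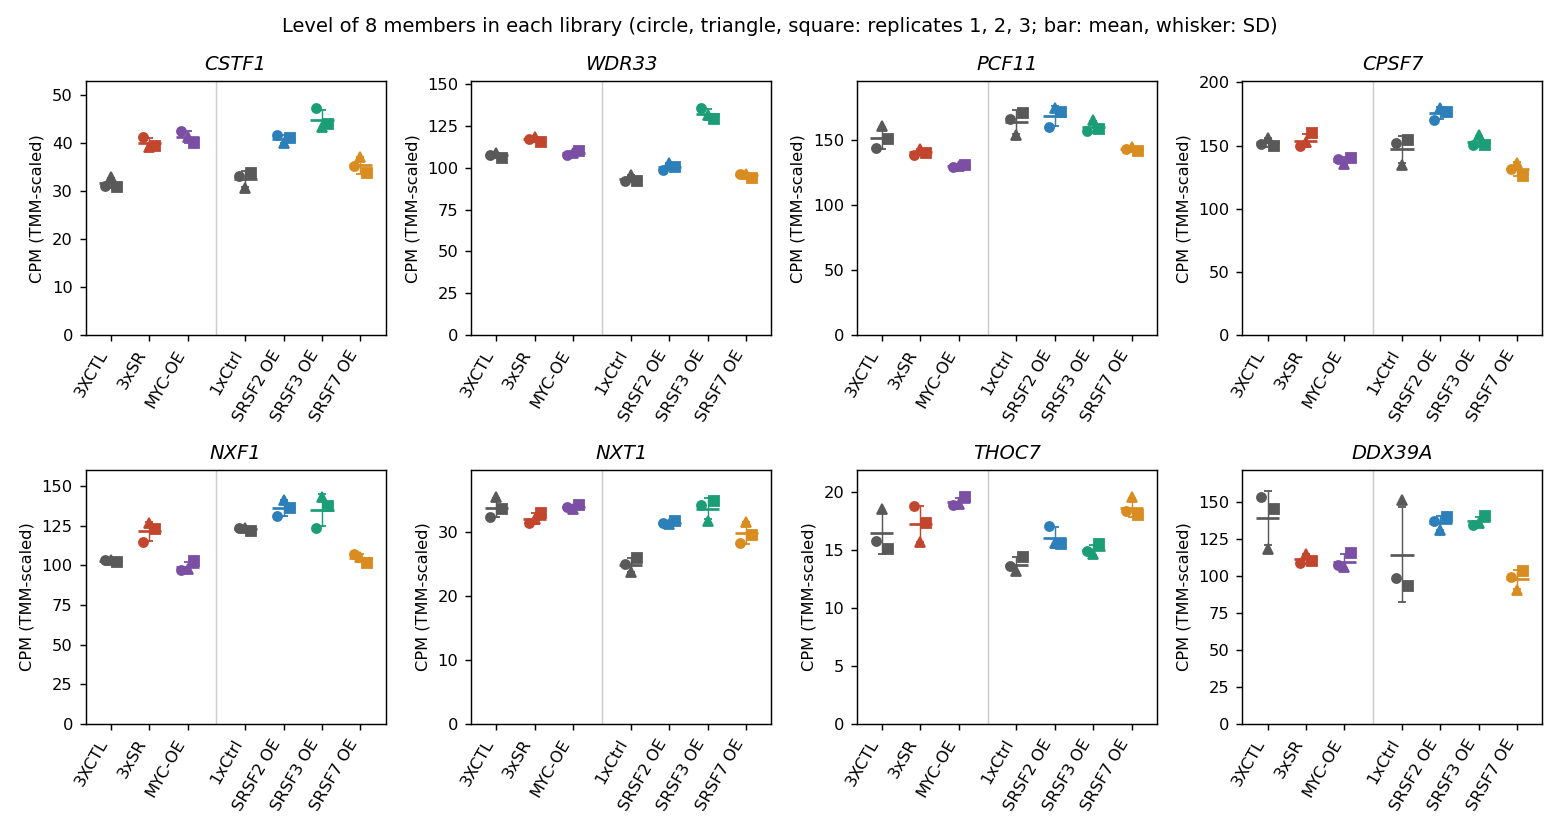
TMM-scaled CPM (y axis, from 0) of 8 members in each of the 21 libraries, by group along the x axis, with the first table left of the grey line and the second right of it; circles, triangles and squares are replicates 1, 2 and 3, bars are means and whiskers SDs. CSTF1 is above its controls in 3xSR, MYC-OE, SRSF2 OE and SRSF3 OE, WDR33 in SRSF3 OE by 1.41-fold, and DDX39A shows the spread between 1xCtrl replicate 2 (151 CPM) and the other two controls.

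THO is the core of TREX, and its 6 measured subunits did not move together. In SRSF7 OE 2 were higher and 1 lower, in 3xSR 1 was higher and 1 lower, and in SRSF2 OE and SRSF3 OE 2 were higher in each. THOC3 (ENSG00000051596.9, chr5:175917873-176034680, minus strand) stood at 27.9, 28.5 and 25.1 CPM in 3XCTL, 30.2, 28.4 and 31.1 in 3xSR and 33.9, 33.6 and 32.9 in MYC-OE. In the second table it was at 23.7, 21.8 and 24.1 in 1xCtrl, 30.3, 29.8 and 27.4 in SRSF2 OE, 27.5, 26.3 and 27.7 in SRSF3 OE and 28.2, 30.1 and 29.7 in SRSF7 OE. All libraries of the 3 single lines and of MYC-OE lay above their controls, and 3xSR overlapped 3XCTL. The log2 fold changes were 0.30, 0.33, 0.23 and 0.34 in MYC-OE, SRSF2 OE, SRSF3 OE and SRSF7 OE, with edgeR adjusted p-values of 0.00189, 0.00243, 0.0171 and 0.00347. The value in SRSF3 OE was not called with upper-quartile scaling (adjusted p = 0.112), with total counts alone (0.17), without the filter (0.0515), when only its 2 groups were fitted (0.0882), or without 1xCtrl replicate 1 (0.067), SRSF3 OE replicate 1 (0.0807) or SRSF3 OE replicate 3 (0.0973).

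Reads of THOC3 are uncertain. A neighbouring copy, AC106795.1, covers 1212 of the 1796 bases of its longest transcript at 97% identity or more, and its counts came to 96.9% of those of THOC3. With the counts of both summed, the log2 fold changes were 0.32, 0.35, 0.19 and 0.32 in the same 4 lines, with edgeR adjusted p-values of 0.000919, 0.00166, 0.0358 and 0.00472. The copy alone was not called in SRSF3 OE (0.16, adjusted p = 0.126, edgeR).

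THOC7 (ENSG00000163634.12, chr3:63833870-63863903, minus strand) was at 13.6, 13.2 and 14.4 CPM in 1xCtrl, 17.1, 15.6 and 15.5 in SRSF2 OE, 15.0, 14.7 and 15.5 in SRSF3 OE and 18.4, 19.6 and 18.0 in SRSF7 OE. Its 3 SRSF7 OE libraries were the highest of the table, and the log2 fold change of 0.44 ± 0.0689 (SE, adjusted p = 0.00124, edgeR) was the highest of any called member in SRSF7 OE. The smaller rise in SRSF2 OE (0.23, adjusted p = 0.03, edgeR) was lost in 9 alternative fits. In the first table THOC7 lay at 15.8, 18.6 and 15.1 CPM in 3XCTL, 18.8, 15.7 and 17.3 in 3xSR and 18.9, 19.0 and 19.6 in MYC-OE, with no call in either line. THOC1 (ENSG00000079134.12, chr18:214520-268050, minus strand) went the other way in SRSF7 OE. It stood at 72.3, 66.1 and 77.5 CPM in 1xCtrl, 59.2, 70.4 and 63.3 in SRSF2 OE, 67.2, 68.1 and 69.4 in SRSF3 OE and 59.7, 58.3 and 56.3 in SRSF7 OE, where the log2 fold change was -0.31 ± 0.0726 (SE, adjusted p = 0.0113, edgeR). Its levels in the first table were 52.2, 64.1 and 51.9 in 3XCTL, 56.7, 58.7 and 59.1 in 3xSR and 51.6, 51.6 and 53.9 in MYC-OE, with no call. THOC1 shares 110 exon bases with USP14 on the other strand.

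THOC6 (ENSG00000131652.14, chr16:3024027-3027755, plus strand) was lower in 3xSR. It stood at 46.6, 38.3 and 45.8 CPM in 3XCTL, 33.6, 37.1 and 33.6 in 3xSR and 47.9, 49.5 and 48.2 in MYC-OE. The 3xSR libraries were the lowest of the table, with a log2 fold change of -0.33 ± 0.0738 (SE, adjusted p = 0.00567, edgeR), and MYC-OE exceeded 3xSR by 0.48 (adjusted p = 0.000416, edgeR). With over 55% GC it is among the members that lean in the controls: with the GC trend removed the 3xSR value was -0.14 (adjusted p = 0.0149, edgeR), and without 3XCTL replicate 2 it was -0.41. THOC6 shares 334 of its 1860 exon bases with BICDL2 and HCFC1R1 on the other strand, which held 43.9% and 34.4% as many counts. In the second table its levels were 29.3, 42.7 and 27.6 in 1xCtrl, 42.8, 40.1 and 40.7 in SRSF2 OE, 32.0, 31.9 and 34.1 in SRSF3 OE and 40.9, 39.0 and 42.6 in SRSF7 OE. Replicates 1 and 3 of 1xCtrl lay below every SRSF2 OE and SRSF7 OE library, while replicate 2 lay within the first and just above the second. Without it the log2 fold changes there were 0.53 and 0.53, with edgeR adjusted p-values of 3.88e-05 and 7.73e-05, where the full fit called neither (0.103 and 0.137). THOC2, the scaffold, was higher in 3xSR (0.21), a call lost in 7 of 17 alternative fits with values down to 0.10. THOC5 was higher in SRSF3 OE (0.26) and exceeded its SRSF7 OE level there by 0.41. THOC5 shares 158 exon bases on its strand with NIPSNAP1, which held 107% as many counts, and with the counts of both summed the SRSF3 OE value was -0.033 (adjusted p = 0.735, edgeR).

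The paralogous helicases DDX39A and DDX39B, of which DDX39B is the TREX subunit also known as UAP56, were called lower in different lines in the full fit. DDX39A (ENSG00000123136.15, chr19:14408819-14419383, minus strand) stood at 153, 118 and 145 CPM in 3XCTL, 109, 115 and 110 in 3xSR and 107, 106 and 115 in MYC-OE. Both lines lay below all controls, with log2 fold changes of -0.32 ± 0.0822 (SE, adjusted p = 0.012, edgeR) and -0.34 ± 0.0821 (SE, adjusted p = 0.00649, edgeR). The 3xSR call was lost without 3XCTL replicate 1 (adjusted p = 0.0545), 3XCTL replicate 3 (0.0576) or 3xSR replicate 1 (0.0517), and with the GC trend removed the value was -0.15 in 3xSR and -0.35 in MYC-OE.

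In the second table DDX39A was at 98.9, 151 and 93.3 CPM in 1xCtrl, 137, 131 and 140 in SRSF2 OE, 135, 136 and 140 in SRSF3 OE and 99.5, 90.7 and 103 in SRSF7 OE. Replicate 2 of 1xCtrl exceeded every other library, and no line was called against the control. Without that library the log2 fold change was 0.49 in SRSF2 OE and 0.50 in SRSF3 OE, and 0.039 in SRSF7 OE, where the full fit had -0.23. With the GC trend removed the values were 0.30, 0.43 and -0.23 in these 3 lines, all called (adjusted p = 0.00197, 7.19e-05 and 0.014, edgeR). The SRSF7 OE value of DDX39A thus depended on the setting. Compared directly, SRSF2 OE exceeded SRSF7 OE by 0.47 (adjusted p = 0.0369, edgeR) and SRSF3 OE exceeded it by 0.48 (adjusted p = 0.0241, edgeR).

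DDX39B (ENSG00000198563.14, chr6:31530219-31542448, minus strand) was lower in SRSF7 OE. Its levels were 849, 787 and 889 CPM in 1xCtrl, 835, 929 and 879 in SRSF2 OE, 733, 854 and 783 in SRSF3 OE and 682, 680 and 650 in SRSF7 OE. All SRSF7 OE libraries were below the other 9 of the table, with a log2 fold change of -0.33 ± 0.0711 (SE, adjusted p = 0.00734, edgeR). In the first table it lay at 726, 779 and 765 in 3XCTL, 694, 789 and 791 in 3xSR and 678, 694 and 725 in MYC-OE, with no call in either. A read-through gene, ATP6V1G2-DDX39B, shares 2079 exon bases with DDX39B and held 1.27% as many counts.

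ALYREF, the adaptor that hands the message to NXF1 (ENSG00000183684.8, chr17:81887844-81891586, minus strand), had the largest change, and its call was lost in 10 of 17 alternative fits. It stood at 30.5, 46.4 and 24.8 CPM in 1xCtrl, 51.3, 43.8 and 47.1 in SRSF2 OE, 49.9, 47.1 and 55.7 in SRSF3 OE and 42.0, 39.3 and 47.2 in SRSF7 OE. Replicates 1 and 3 of 1xCtrl lay below all 9 libraries of the single lines and replicate 2 did not. The log2 fold change in SRSF3 OE was 0.59 ± 0.192 (SE, adjusted p = 0.0439, edgeR). RLE scaling ended that call (adjusted p = 0.0536), as did using total counts (0.115), dropping the filter (0.191), the replicate block (0.0806), or fits of its 2 groups alone (0.195) or without any 1 of 5 libraries (1xCtrl replicates 1 and 3 and each SRSF3 OE library, 0.128 to 0.257). Without 1xCtrl replicate 2 the log2 fold change was 0.87 in SRSF3 OE, 0.77 in SRSF2 OE and 0.64 in SRSF7 OE, all called. In the first table ALYREF was at 62.4, 45.9 and 56.3 CPM in 3XCTL, 47.2, 47.7 and 42.9 in 3xSR and 48.6, 45.9 and 48.2 in MYC-OE, and neither line was called (adjusted p = 0.0612 and 0.112, edgeR). Without 3XCTL replicate 2 both were called lower, at -0.37 and -0.32 (adjusted p = 0.000253 and 0.000807, edgeR). With the GC trend removed the values were -0.09 and -0.20 (adjusted p = 0.287 and 0.0143, edgeR). In the joint fit its 3xSR effect was lower than that of SRSF2 OE by 0.73 and of SRSF3 OE by 0.83. Leaving out 1xCtrl replicate 2 raised both single effects, as above.

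POLDIP3, an adaptor of the same complex (ENSG00000100227.18, chr22:42583721-42614962, minus strand), was higher in SRSF3 OE and lower in MYC-OE. It stood at 75.5, 77.3 and 74.0 CPM in 1xCtrl, 83.9, 80.1 and 75.1 in SRSF2 OE, 91.2, 87.3 and 90.3 in SRSF3 OE and 76.9, 81.6 and 74.4 in SRSF7 OE. Levels in the first table were 94.1, 91.5 and 90.5 in 3XCTL, 87.7, 89.7 and 89.5 in 3xSR and 80.8, 80.04 and 78.4 in MYC-OE. The SRSF3 OE libraries were the highest of the second table and the MYC-OE libraries the lowest of the first. The log2 fold change was 0.25 ± 0.0579 (SE, adjusted p = 0.00603, edgeR) in SRSF3 OE, which was lost in 6 alternative fits, and -0.21 ± 0.0439 (SE, adjusted p = 0.00304, edgeR) in MYC-OE. SARNP and ZC3H11A were called in no line. ZC3H11A shares 11983 of its 12798 exon bases with ZBED6, a gene inside it, and SARNP shares 925 of 3396 with AC023055.1, so the authors' counting could split their reads.

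Compared directly, SRSF3 OE and SRSF7 OE, the 2 export adaptors among the factors, differed in 19 members (52.8%, beside 35.2% of all genes). Of these, 18 were higher in SRSF3 OE (50%, beside 17.8%) and 1, THOC7, was higher in SRSF7 OE (2.78%, beside 17.3%). The higher ones spanned the module: DDX39A (0.48), RBBP6 (0.47), WDR33 (0.47), THOC5 (0.41), NXF1 (0.36) and CSTF1 (0.34) led, and both members of CFIIm, of the export receptor and of the helicases were among them. The THOC5 value is limited by the overlap with NIPSNAP1 given above. With counts summed over same-strand genes sharing exons, 17 members were higher and 2 lower (beside 17.8% and 17.4% of all genes), and 1 call reversed. The median difference over the 36 members was 0.21, beside -0.023 over all genes. The control libraries enter these values only through the filter, the scaling and the estimate of the spread. With the 2 lines fitted alone 18 were higher and 3 lower (beside 20% and 22.7% of all genes). The median was then 0.19 over the members and -0.042 over all genes. The split depended on scaling: with total counts alone, which moves the median of all genes to -0.13, 7 members were higher and 5 lower (beside 12.6% and 23.1%), and upper-quartile scaling gave 11 higher and 2 lower (beside 15.3% and 18.3%). With the GC trend removed 17 were higher and 3 lower (beside 21.8% and 20.4%), and 16 of the 19 calls were kept. The median was then 0.12 over the members and -0.0022 over all genes.

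SRSF2 OE exceeded SRSF7 OE in 12 members and fell below it in 2 (33.3% and 5.56%, beside 11.5% and 12.8%), led by DDX39A (0.47), CPSF7 (0.42) and DDX39B (0.39). SRSF2 OE and SRSF3 OE differed in 8 members, 3 higher and 5 lower in SRSF2 OE (beside 12.6% and 14.1% of all genes, together 26.8%), with WDR33 lower by 0.39 and PABPN1 higher by 0.25. MYC-OE against 3xSR had 2 members higher, THOC6 and CPSF4, and 5 lower, NXF1 by 0.29 among them (beside 17.3% and 17.6%). Those 2 counts are near or under the share of all genes. The libraries of the 2 lines did not overlap in 23 members for MYC-OE against 3xSR (beside 53.2% of all genes), 21 for SRSF2 OE against SRSF3 OE (47.7%), 26 for SRSF3 OE against SRSF7 OE (52.6%) and 20 for SRSF2 OE against SRSF7 OE (46%).

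Whether the combined line matched the single lines was tested as the difference between its effect and each single-factor effect, in a joint fit over both tables. Against the SRSF2 OE effect the 3xSR effect was lower in 8 members and higher in 1, THOC2 (22.2% and 2.78%, beside 8.53% and 13.3% of 25013 genes). Against the SRSF3 OE effect it was lower in 6 members (16.7%, beside 7.02%) with the other 30 not called, and against the SRSF7 OE effect it was higher in 7 and lower in 4 (19.4% and 11.1%, beside 13.6% and 10.9%, together 24.6%). Without 1xCtrl replicate 2 the counts were 2 higher and 10 lower against SRSF2 OE (beside 15.9% and 13.9% of all genes), 11 lower against SRSF3 OE (beside 11.2%), and 9 higher and 8 lower against SRSF7 OE (beside 16.5% and 17%). CSTF2T and NXT1 were lower in all 3 tests of the full fit. NXF1 (0.48), RBBP6 (0.44), THOC1 (0.36), THOC2 (0.34) and DDX39B (0.33) led the members whose effect was higher in 3xSR than in SRSF7 OE. No member's effect was called higher in 3xSR than in SRSF3 OE by edgeR, DESeq2 or limma-voom, and edgeR had 0 at an unadjusted p under 0.05.

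The other genes of the pathway were read from lists of related factors, beside the shares of all genes called higher and lower in each line (15% and 14.1% in SRSF3 OE, 11.6% and 11.9% in SRSF2 OE, 9.03% and 8.26% in SRSF7 OE, 15.3% and 13.7% in 3xSR, 18% and 17.3% in MYC-OE). In SRSF3 OE 12 of 17 cap-binding, exon junction and export adaptor genes were higher and 5 not called, led by FYTTD1, an alternative NXF1 adaptor (log2 fold change 0.54), and 8 of 17 TREX-2 and nuclear pore genes were higher and 9 not called, led by RAE1, a pore-bound export factor (0.67). There too, 10 of 20 other termination factors were higher and 10 not called (SCAF8, 0.44), and 9 of 20 nuclear exosome genes were higher and 11 not called (DIS3, its nuclease, 0.56). Of 16 deadenylation genes 4 were higher and 1, PAN2, was lower by 0.45. SRSF2 OE had 9 higher and 1 lower of the 17 cap and adaptor genes, from MAGOH (0.46) to NXT2 (-0.41), and 7 higher of the TREX-2 and pore genes with 10 not called, again led by RAE1 (0.60). Without 1xCtrl replicate 2, SRSF3 OE had 13 higher and 1 lower of the cap and adaptor genes, 6 higher of the pore genes, 9 higher of the termination factors, 11 higher and 2 lower of the exosome genes, and 4 higher and 2 lower of the deadenylation genes. SRSF2 OE then had 9 higher and 1 lower, and 7 higher and 1 lower, of the first 2 lists. Without that library, the shares of all genes called higher and lower were 16.3% and 15.8% in SRSF3 OE. They were 14.5% and 15.6% in SRSF2 OE.

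SRSF7 OE had 4 higher and 1 lower of the cap and adaptor genes, led by ERH (0.38), and 4 higher and 3 lower of the pore genes, from CETN2 (0.49) to TPR (-0.25). In 3xSR the same lists had 3 higher and 2 lower, and 3 higher and 1 lower, and LEO1 of the PAF complex was the lowest termination factor called (-0.52). In MYC-OE 5 of 17 cap and adaptor genes were lower and 1 higher, with EIF4A3, the exon junction helicase, at -0.49. PAF1, an elongation factor linked to 3′ end formation, fell in MYC-OE from 80.8 ± 3.2 (SD, n = 3) to 38.6 ± 0.678 CPM (SD, n = 3), a log2 fold change of -1.07 and larger than that of any member. Integrator, the separate machine that cuts small nuclear RNAs, had 3 of 15 genes higher and 1 lower in SRSF3 OE, from INTS13 (0.43) to INTS3 (-0.47), and 2 higher and 4 lower in MYC-OE. Without replicate 2 of the control, SRSF7 OE had 7 higher and 2 lower of the cap and adaptor genes and 5 higher and 5 lower of the pore genes. The same lists then had 4 higher and 4 lower, and 7 higher and 2 lower, in 3xSR. The cap and adaptor genes had 4 higher and 5 lower in MYC-OE, and Integrator had 5 higher and 3 lower in SRSF3 OE and 2 higher and 5 lower in MYC-OE. Without these control libraries, the shares of all genes called higher and lower were 16.4% and 12.8% in SRSF7 OE and 16.3% and 15.8% in SRSF3 OE. They were 19.4% and 19.1% in 3xSR and 19.4% and 18.2% in MYC-OE.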

How the data were processed

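Poly(A)-selected, stranded 150-base paired reads from 21 libraries were counted by the authors, who deposited whole-number counts per gene in 2 tables, not scaled. The submitters' processing notes name Trimmomatic 0.39, STAR, StringTie 2.1.3b and GRCh38.p13. Their roles, the strand setting and the annotation release are not given in the sources used here. The members, the lists and the tests were chosen with earlier results of these data known.

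Each table was fitted over all its groups with edgeR 4.0.16 (R 4.3.3): filterByExpr with a minimum count of 10 and a minimum total of 15, TMM scaling, the robust quasi-likelihood test, and Benjamini-Hochberg adjustment over all genes tested at 0.05. A joint fit over 21 libraries gave the 3xSR effect minus each single effect. SE is the size of the log2 fold change over the root of F. The steps were tested on simulated data. Alternatives were DESeq2 1.42.0, limma 3.58.1 (voom), other scalings, no filter, only the 2 groups compared, a replicate block, each replicate left out, and each library's GC trend removed. Exon lengths, GC content and positions are from GENCODE 29 (GRCh38), matched by identifier, and transcript copies were sought with blastn 2.17.0. Every pair of replicates differed by more than sampling noise. Values in every library are given for 16 members: those called in the same direction in at least 4 of the 5 lines, the 2 highest and 2 lowest called in each line, and those called in opposite directions. The other members are given by range, count or fold change, and of each further list at most the highest and lowest called gene per line is named. Summing THOC3 with its copy, and the list counts without replicate 2 of a control, were chosen after seeing the data. Calls lost are counted over 17 alternative fits, 6 of which leave out 1 library. Among the 17 are the sum of THOC3 with its copy and the sums with same-strand genes sharing exons. These change the counts of THOC3, or of members with such genes, and for the other members nearly repeat the full fit. For those members such fits could hardly lose a call.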

Additional observations from a re-analysis of the deposited data

Results flagged for a closer look

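Direct tests of a difference between lines passed in several members. The libraries of MYC-OE and 3xSR differed in 7 members (19.4%, beside 34.9% of all genes) and SRSF2 OE and SRSF3 OE in 8 (22.2%, beside 26.8%), both under the share of all genes. SRSF3 OE and SRSF7 OE differed in 19 (52.8%, beside 35.2%), and SRSF2 OE and SRSF7 OE in 14 (38.9%, beside 24.2%). The 3xSR effect differed from the SRSF2 OE effect in 9 members (25%, beside 21.9%), from the SRSF3 OE effect in 6 (16.7%, beside 17.8%) and from the SRSF7 OE effect in 11 (30.6%, beside 24.6%).

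A few members were called in opposite directions in different lines. CPSF7 had a log2 fold change of 0.26 in SRSF2 OE and -0.14 in MYC-OE, and POLDIP3 had 0.25 in SRSF3 OE and -0.21 in MYC-OE. For both genes the difference between those effects was not tested. NXF1 had 0.24 in 3xSR and -0.23 in SRSF7 OE, and that difference was tested and passed (0.48, edgeR adjusted p = 6.32e-05).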

How the results depend on the processing

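Of 1360 alternative values for the 16 members given by library, 50 lost a call and 51 gained one in the same direction. The sign differed from the full fit in 44, all of values not called there, and 2 of these were called: THOC6 in SRSF3 OE (-0.026), at 0.13 with the GC trend removed and from -0.20 to 0.18 when 1 library was left out, the highest without 1xCtrl replicate 2. Shares of all genes called stand in parentheses below. With the GC trend removed, the members called were 17 in MYC-OE (43.3%), 21 in SRSF2 OE (33.8%), 17 in SRSF7 OE (28.8%), 17 in MYC-OE against 3xSR (37.6%), 13 in SRSF2 OE against SRSF3 OE (34.6%), 16 for the 3xSR effect minus the SRSF2 OE effect (28.3%) and 13 for that minus the SRSF3 OE effect (28.3%). With only the compared groups fitted, they were 7 in SRSF2 OE (18.9%), 8 in SRSF3 OE (21.5%), 5 in SRSF7 OE (9.76%), 16 in MYC-OE against 3xSR (44%), 3 for the 3xSR effect minus the SRSF2 OE effect (17.7%) and 7 for that minus the SRSF7 OE effect (20.4%). Total counts alone gave 9 in SRSF3 OE (29.4%), 11 in MYC-OE against 3xSR (35.1%) and 12 in SRSF3 OE against SRSF7 OE (35.7%).

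Leaving out 1 library gave 5 to 20 members in 3xSR (20.5% to 38.5%), 5 to 15 in MYC-OE (27.6% to 37.7%), 7 to 19 in SRSF2 OE (18.9% to 30%), 8 to 15 in SRSF3 OE (22% to 32.1%), 8 to 16 in SRSF7 OE (10.7% to 29.2%), 2 to 7 in MYC-OE against 3xSR (25.4% to 29%), 6 to 10 in SRSF2 OE against SRSF3 OE (20.5% to 25.3%), 13 to 17 in SRSF3 OE against SRSF7 OE (27.7% to 30.8%) and 11 to 12 in SRSF2 OE against SRSF7 OE (17.5% to 21.3%). For the 3xSR effect minus those of SRSF2 OE, SRSF3 OE and SRSF7 OE the ranges were 7 to 12 (17.4% to 29.8%), 5 to 11 (13.8% to 23.9%) and 9 to 17 (19.4% to 33.5%). The cause of these changes was not tested.

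The replicate numbers did not pair the libraries: in no comparison did all 3 same-numbered pairs correlate above 0.1, and the mean correlation ran from -0.347 to 0.055. With the replicate block, the counts were 9 in 3xSR (26.5%), 8 in MYC-OE (33.5%), 10 in SRSF2 OE (20.3%), 11 in SRSF3 OE (26%), 7 in SRSF7 OE (13.8%) and 5 in SRSF2 OE against SRSF3 OE (23.4%). The lowest count of a member in any library was 2468.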
